A study of Sus scrofa with 12 samples.

Results

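The genes described here are 9 regulators of oxidative metabolism in pig skeletal muscle, taken by name out of 28210 RefSeq genes placed on a chromosome of the pig genome (Sscrofa11.1): the coactivators PPARGC1A and PPARGC1B, the nuclear receptors ESRRA, ESRRG, PPARA and PPARD, the transcription factors NRF1 and TFAM, and VEGFA, a secreted growth factor of blood vessels. The tissue was longissimus muscle of 2-week-old male piglets of the commercial lean breed Large White (LW) and of Meishan (MS), a local Chinese breed, with no treatment or edited allele named for either. H3K27ac BL-HiChIP, which ligates DNA ends lying close together in the nucleus through a bridge linker and enriches fragments carrying H3K27ac, a mark of active regulatory DNA, gave 2 libraries per breed. GRID-seq, which links RNA to the DNA it lies on in fixed nuclei, gave 2 libraries per breed as well. The methods name 2 male piglets and libraries made in duplicate, without saying whether the duplicates of a breed came from different animals, so that p-values measure the spread between these libraries, which may be technical.

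Muscle fibres adjust their mitochondria and blood supply through a small set of regulators. PPARGC1A and PPARGC1B (PGC-1α and PGC-1β) bind no DNA themselves and act by docking on receptors such as the estrogen-related receptors ESRRA and ESRRG and the fatty-acid sensing receptors PPARA and PPARD. NRF1 drives nuclear genes of the respiratory chain and also TFAM, which enters the mitochondrion to package and transcribe its DNA. In muscle, PPARGC1A and ESRRG are known to switch on VEGFA, and through it capillary growth.

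The BL-HiChIP lists held 57028 and 43282 loops in LW (replicate 1, then 2, an order kept throughout) and 45061 and 33353 in MS, each loop joining a pair of 5-kb anchors and carrying a false discovery rate (FDR). The loop score of a gene is the sum of −log10 FDR over its loops. The GRID-seq lists held 8181721 and 9943666 RNA reads in LW and 7172517 and 9381797 in MS. All 10 skeletal muscle marker genes had loops in each of the 4 libraries, with summed scores between 559.5 and 1412, while PTPRC, CD3E and LYZ of the 4 leukocyte markers, ADIPOQ, PLIN1 and LEP of the 4 adipocyte markers and all 3 nerve and glia markers had none in any library. The remaining adipocyte marker, CIDEC, had loops in all 4 libraries (scores of 9.06 and 14.1 in LW, 5.36 and 6.14 in MS), and CD14 of the leukocyte markers had a score of 2.08 in LW replicate 2 alone.

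VEGFA and PPARD carried the strongest loops at their gene ends, and PPARGC1A and ESRRG carried none there. These are RefSeq ends, and the listed PPARGC1A RNA starts inside the RefSeq gene, at an anchor with loops that is described below. A loop was counted for a gene when an anchor lay within 1 kb of either end, because the gene table used gives no strand. By this count the 9 genes had 31 and 25 loops in LW against 30 and 25 in MS, 63 different anchor pairs in all. No gene differed between breeds at an adjusted p under 0.05 (limma, 0% of 15431 genes with a loop, against 822 with an unadjusted p under 0.05). The study's looser threshold, a log2 fold change above 1.5 in size with an unadjusted p under 0.05, called 2.83% of genes higher in LW and 2.50% higher in MS, and none of the 7 members that could be tested. The median log2 fold change (LW over MS, on the log2(score + 1) scale) was −0.44 over those 7 genes and 0.02 over all genes. At 2 against 2 libraries no exact permutation test (two-sided) can reach a p under 0.33.

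**Figure D1:**
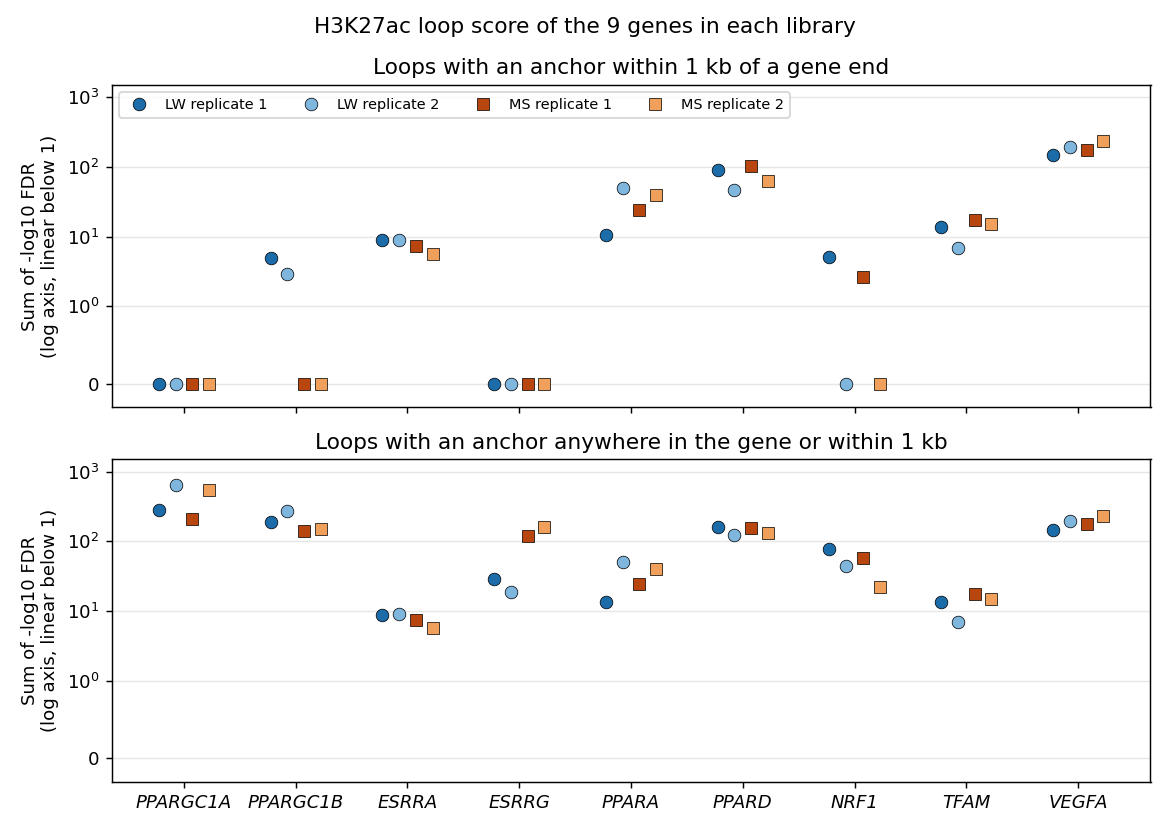
H3K27ac loop score (sum of −log10 FDR, log axis that is linear below 1) of each gene in each of the 4 libraries, circles for LW and squares for MS, at the gene ends (top) and over the whole gene (bottom). PPARGC1A and ESRRG lie at 0 in the top panel and between 212.9 and 635.6 and between 18.8 and 160.4 in the bottom one.

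VEGFA (chromosome 7, 38746393 to 38762282) was the most looped of the 9 at its ends. It had 12 and 13 loops in LW against 13 and 12 in MS, with loop scores of 148.2 and 194.7 in LW against 177.2 and 235.4 in MS. The scores of the breeds overlapped, and the fold change did not pass the test (log2 −0.44, SE 0.76, limma adjusted p = 0.99). The mean score lay above that of 99.4% of genes with a loop. Nearly all loops left from a single anchor, chr7:38745001-38750000, which holds the start of VEGFA RNA and the uncharacterised gene LOC106504420 and carried 12 and 13 loop ends in LW against 12 and 12 in MS.

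Of 17 loop positions of VEGFA (loops of different libraries with both anchors within 1 bin of each other), 9 were called in all 4 libraries, against 17.0% of the 86838 loop positions in the whole lists. The strongest joined the VEGFA anchor to chr7:38990001-38995000, 245 kb downstream, an anchor over C7H6orf223, with −log10 FDR of 39.2 and 76.6 in LW against 46.1 and 93.6 in MS. The next reached between 335 and 340 kb downstream, to an anchor with no RefSeq gene, with 42.8 and 45.6 in LW against 47.8 and 60.9 in MS. Another spanned 200 kb, also to an anchor without a gene, with 13.4 and 14.7 in LW against 32.9 and 34.9 in MS. On the latter 2 positions both MS libraries lay above both LW libraries, and on the strongest the breeds overlapped; single loops were not tested. Upstream, VEGFA was joined in all 4 libraries to MRPS18A, a protein of the mitochondrial ribosome, over 90 kb (2.09 to 4.22), and to an anchor over MRPS18A and RSPH9, a radial spoke protein of cilia, over 105 to 110 kb (2.78 to 10.7).

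PPARD (chromosome 7, 31222533 to 31295221), the receptor that raises fatty acid oxidation in muscle fibres, had 6 and 3 loops in LW against 6 and 5 in MS. Its loop scores were 89.2 and 47.5 in LW against 103.8 and 62.7 in MS, so that the replicate 1 library was the higher one in each breed and the breeds overlapped (log2 −0.54, SE 0.88, limma adjusted p = 0.99). The strongest position ran between 65 and 70 kb inside the gene, from its start towards its other end, with −log10 FDR of 45.8 and 18.8 in LW against 39.0 and 17.9 in MS. The other position of all 4 libraries reached the uncharacterised gene LOC110261706 at 90 kb, with 5.69 and 3.57 in LW against 11.3 and 7.20 in MS. The remaining one of at least 3 libraries, to an anchor over DEF6 and ZNF76 at 30 kb, was called in LW replicate 1 and both MS libraries.

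PPARA (chromosome 5, 3302755 to 3321091), the receptor that governs fatty acid oxidation genes, had 2 and 3 loops in LW against 3 and 2 in MS. Its loop scores of 10.5 and 50.6 in LW spanned those of 24.3 and 39.8 in MS (log2 −0.77, SE 1.01, limma adjusted p = 0.99), and without LW replicate 1 the log2 fold change was 0.45. Most of the score came from 1 position of 40 to 45 kb, to an anchor with no RefSeq gene, with −log10 FDR of 43.0 in LW replicate 2, 13.0 and 25.6 in MS, and no call in LW replicate 1.

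ESRRA (chromosome 2, 7803504 to 7812868), the receptor through which PPARGC1A acts on mitochondrial genes, had few and weak loops, 3 and 3 in LW against 2 and 2 in MS. Its loop scores were 8.93 and 9.0 in LW against 7.44 and 5.68 in MS (log2 0.01, SE 0.76, limma adjusted p near 1). None of its 8 loop positions was called in 3 or 4 libraries. Chosen after their values were seen, the 2 positions of 2 libraries led to FKBP2 and PPP1R14B at 65 kb (4.32 in LW replicate 2 and 2.88 in MS replicate 2) and to STIP1 at 120 kb (2.42 in LW replicate 2 and 2.93 in MS replicate 1), and 1 position of LW replicate 1 led to FKBP2 and VEGFB, a relative of VEGFA, at 60 kb (3.17).

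TFAM (chromosome 14, 92261713 to 92279731) had 4 and 2 loops in LW against 5 and 4 in MS, with loop scores of 13.6 and 6.91 in LW against 17.6 and 15.1 in MS. Both MS values lay above both LW values, but the difference did not pass the test (log2 −1.0, SE 0.76, limma adjusted p = 0.99). The position of all 4 libraries joined TFAM over 105 kb to an anchor over CISD1, an iron-sulfur protein of the outer mitochondrial membrane, and IPMK, an inositol phosphate kinase, with −log10 FDR of 5.21 and 4.2 in LW against 2.44 and 4.75 in MS.

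NRF1 (chromosome 18, 19008408 to 19142678) had 2 loops in LW replicate 1, 1 in MS replicate 1 and none in the replicate 2 libraries, with loop scores of 5.18 and 2.68 where it had any. PPARGC1B (chromosome 2, 150823338 to 150924871) had 2 and 1 loops in LW and none in MS, with scores of 4.97 and 2.89. The breeds did not overlap for PPARGC1B, but the fold change missed both thresholds (log2 1.79, SE 0.77, limma adjusted p = 0.94). All 3 calls left from the higher-coordinate end of the gene, which GRID-seq places as its far end. Its other anchor, chr2:150825001-150830000, begins just outside the 1-kb window and held 9 and 15 loop ends in LW against 10 and 9 in MS. With a 5-kb window PPARGC1B therefore had 10 and 15 loops in LW against 10 and 9 in MS, and the 9 genes 119 different anchor pairs. The log2 fold change of PPARGC1B was then 0.32 (SE 0.68, limma adjusted p near 1). The same window brought in loops of ESRRG, 1 and 0 in LW against 8 and 7 in MS, and ESRRG passed the study's threshold (log2 −4.69, SE 0.74, limma adjusted p = 0.71), as 2.43% of 17023 genes did in the direction of MS.

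The picture changed when loops with an anchor anywhere in a gene, or within 1 kb of it, were counted, a choice made after the data were seen. Such a count can rise with gene length and was not scaled to it, and PPARGC1A (686.1 kb) and ESRRG (660.8 kb) were the longest members. By this count PPARGC1A was the most looped member, and ESRRG was the 1 member past the study's threshold, higher in MS, a direction called for 2.62% of 16623 genes (3.65% were called higher in LW). No gene passed an adjusted p under 0.05 (limma, 0%, against 1042 at an unadjusted p under 0.05).

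ESRRG (chromosome 10, 6710615 to 7371419), the receptor that in mice drives oxidative fibre metabolism and vascular supply, had 8 and 4 loops in LW against 30 and 28 in MS. Its whole-gene loop score was 29.2 and 18.8 in LW against 120.9 and 160.4 in MS. The MS libraries lay well above the LW libraries, although the MS lists were shorter for each replicate number. The log2 fold change was −2.86 (SE 0.65, limma adjusted p = 0.58), and it ran from −3.13 to −2.63 when each library was left out in turn and was −2.52 without normalization between libraries.

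**Figure D2:**
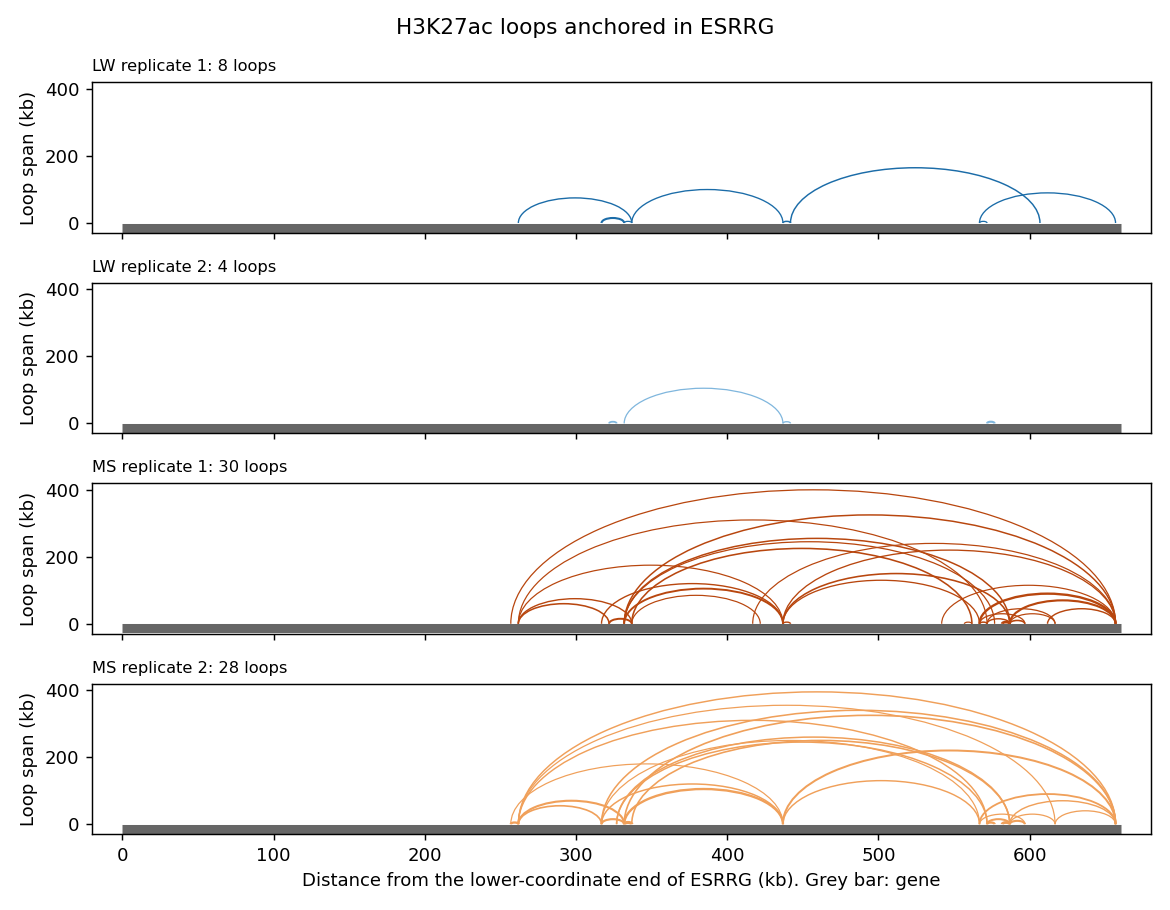
H3K27ac loops anchored in ESRRG in each library, drawn as arcs over the distance from the lower-coordinate end of the gene (kb), with the height giving the loop span (kb) and thicker lines a larger −log10 FDR up to a limit of 40. The MS panels hold 30 and 28 loops and the LW panels 8 and 4, all with both anchors inside the gene.

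All ESRRG loops had both anchors inside the gene, at spans of 5 to 400 kb. Of its 36 loop positions, 17 were called in both MS and in no LW library and none in both LW and no MS library, against 2.03% and 6.26% of all loop positions. These positions are the loops that make up the score above, and several share an anchor. They therefore restate that difference and are not independent of each other. The anchor chr10:7295001-7300000 held 7 and 7 loop ends in MS and none in LW. The anchor nearest the higher-coordinate end, chr10:7365001-7370000, held 8 and 7 in MS and 1 and 0 in LW, and these are the loops that the 5-kb window counted. By contrast chr10:7145001-7150000 was used in each library, with 2 and 2 loop ends in LW against 7 and 5 in MS. The 3 positions of all 4 libraries spanned at most 105 kb. The strongest of them, near the middle of the gene, had −log10 FDR of 7.88 and 5.89 in LW against 7.03 and 8.27 in MS.

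PPARGC1A (chromosome 8, 17841844 to 18527953), the coactivator most closely tied to mitochondrial biogenesis and slow fibres, had 47 and 49 loops in LW against 36 and 47 in MS. Its whole-gene loop scores were 281.7 and 635.6 in LW against 212.9 and 550.9 in MS. The replicate 2 library was the higher one in both breeds and the breeds overlapped (log2 −0.02, SE 0.74, limma adjusted p near 1). The mean lay above 99.7% of genes with a loop by this count, which was not scaled to gene length. Both anchors lay inside the gene for 32 and 31 of its loops in LW and 22 and 29 in MS. Of its 73 loop positions 22 were called in all 4 libraries, 6 in both LW and no MS library and 3 in both MS and no LW library. Over all 86838 loop positions these shares were 17.0%, 6.26% and 2.03%.

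The loops of PPARGC1A formed a web among a few anchors. The most used, chr8:17945001-17950000, held 14 and 14 loop ends in LW against 11 and 14 in MS and is centred 14.4 kb downstream of the start of the listed RNA. It was joined in all 4 libraries to chr8:17990001-17995000, 30.6 kb upstream of that start (−log10 FDR of 15.2 and 42.1 in LW against 25.1 and 68.1 in MS). It was also joined over 420 kb to chr8:17525001-17530000, 314.3 kb beyond the end of the RNA, with no RefSeq gene there (8.84 and 51.5 in LW, 11.6 and 38.8 in MS). A further shared position led 365 to 370 kb in the other direction, to the anchor at chr8:18310001-18315000 and its neighbour (13.8 and 31.9 in LW, 5.23 and 25.2 in MS). RefSeq stretches PPARGC1A over 686.1 kb, while the listed RNA covers 120.1 kb of it. Its start, at 17961909, was therefore not counted as a gene end. The anchor that holds it, chr8:17960001-17965000, was joined in all 4 libraries to chr8:17945001-17950000 (20.7 and 32.5 in LW, 9.93 and 26.1 in MS). It was also joined in all 4 to chr8:17990001-17995000 (11.9 and 24.5 in LW, 8.80 and 22.3 in MS).

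Since the PPARGC1A score at the gene ends was 0 in all 4 libraries, no gene could be ranked by likeness to it there. In the whole-gene score, the genes of smallest Euclidean distance over the 4 libraries were LOC106506002 (0.20 on the log2(score + 1) scale), TRIB1 (0.42), a pseudokinase, and JPH1 (0.45), a junctophilin of the muscle triad.

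PPARGC1B had 29 and 28 loops in LW against 24 and 16 in MS over the whole gene, with scores of 188.9 and 270.4 in LW against 139.7 and 150.1 in MS. Both LW libraries lay above both MS libraries, a difference that did not pass the test (log2 0.34, SE 0.65, limma adjusted p = 0.98). Its leading anchor, chr2:150825001-150830000, also holds MIR378-1, the gene of a microRNA hosted by PPARGC1B. The strongest position joined this anchor over 55 to 60 kb to one inside the gene, with −log10 FDR of 32.4 and 66.2 in LW against 7.36 and 38.7 in MS. The next led 85 to 90 kb upstream to ARHGEF37, with 10.2 and 20.7 in LW against 11.2 and 14.4 in MS. NRF1 had 16 and 6 loops in LW against 14 and 4 in MS, led by the anchor chr18:19025001-19030000, with scores of 78.7 and 44.8 in LW against 57.5 and 22.5 in MS that overlapped between breeds.

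The RNA of PPARGC1A was listed on chromatin in MS alone and that of PPARGC1B in LW alone, while PPARD and VEGFA RNA were listed in all 4 libraries and had more reads in MS. ESRRA RNA was listed in MS replicate 1, and no RNA overlapping ESRRG, PPARA, NRF1 or TFAM was listed in any library. Of the 1122 RNAs listed in at least 1 library, 7.58% were in both MS and no LW library, 6.15% in both LW and no MS library, 27.5% in all 4 and 6.68% in MS replicate 1 alone. The lists do not hold every RNA, so that a missing RNA may still have been present, and no fold of its reads is given. Listing did not follow read number alone. DSC2 RNA was listed in replicate 1 of LW and of MS (56649 and 95526 reads) and in neither replicate 2 library. CACNA1E RNA (63585 reads) was listed in MS replicate 2 alone, and DST RNA (37153 reads) in LW replicate 2 alone. Listing in 1 breed alone is therefore not taken as a measure of RNA amount. In these bulk samples fewer cells of a type and less RNA per cell cannot be told apart.

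**Figure D3:**
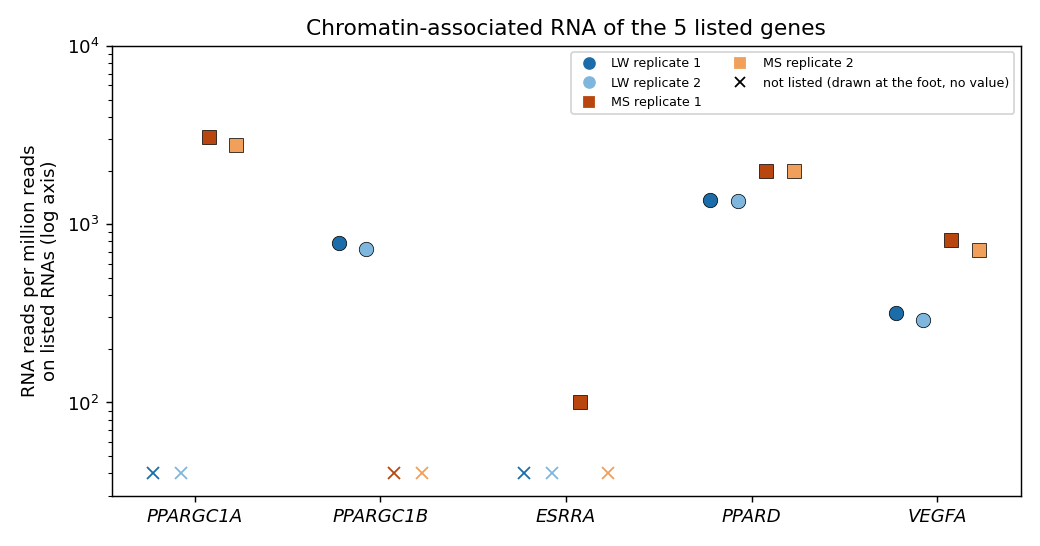
RNA reads as RPM of all reads on listed RNAs (log axis) for the 5 genes with a listed RNA, circles for LW, squares for MS and crosses for a library in which the RNA was not listed. VEGFA sits at 317.2 and 290.4 in LW against 811.8 and 719.1 in MS.

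PPARGC1A RNA (strand −, 17841844 to 17961909) had 22025 and 26233 reads in MS, the 55th of 519 and the 59th of 649 RNAs by reads. Per length this was 183.4 and 218.5 reads per kb, where the lowest RNA listed in LW had 39.6 and 44.1. It was thus not among the lowest listed RNAs in MS, but RNAs with more reads were also missing by name from single libraries, as given above. Among RNAs of similar length, the fewest reads listed in LW were 6446 and 7182, which are those of PPARGC1B RNA itself. PPARGC1B RNA (strand +, 150823373 to 150919378) had 6446 and 7182 reads in LW, 67.1 and 74.8 per kb, with 3.15% and 2.79% of the RNAs listed there below 67.1 reads per kb. PPARGC1B therefore lay near the lower end of the listed RNAs, as did ESRRA, with 718 reads and 69.5 per kb in MS replicate 1.

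VEGFA RNA had 2595 and 2888 reads in LW and 5823 and 6746 in MS, 317.2 and 290.4 against 811.8 and 719.1 RPM, scaled to all reads on listed RNAs. Both MS libraries lay above both LW libraries. In the edgeR quasi-likelihood test over the 308 RNAs listed in all 4 libraries, VEGFA was 2.58-fold higher in MS (log2 −1.37, SE 0.02, adjusted p = 3.8e-06). PPARD RNA had 11217 and 13416 reads in LW and 14169 and 18696 in MS, 1371 and 1349 against 1975 and 1993 RPM, and was 1.50-fold higher in MS (log2 −0.58, SE 0.07, edgeR adjusted p = 0.00136). The test called 86.7% of these RNAs and 42.5% as higher in MS, so that passing it set neither gene apart. By size, 12 of the 308 RNAs changed at least as far towards MS as VEGFA, and 47 at least as far as PPARD.

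The RNAs differed in how far they reached, with distance measured from the ends of the listed RNA and not of the RefSeq gene. PPARD RNA stayed close: 100% and 98.9% of its signal in LW and 94.3% and 90.8% in MS fell within 10 kb. Its farthest bin in MS replicate 2 was nevertheless 891.1 kb away. VEGFA RNA had 86.0% and 71.0% of its signal within 10 kb in LW and 79.7% and 67.3% in MS, and reached 311.5 and 116.5 kb in LW and 346.5 and 364.5 kb in MS. PPARGC1B RNA had 62.9% and 58.8% within 10 kb in LW and reached 525.1 and 695.1 kb. By this measure PPARGC1A RNA was the most spread, with 39.2% and 36.1% within 10 kb in MS and 84.7% and 83.2% within 500 kb. Its contacts lay up to 53821 and 15039 kb away on the same chromosome. The listed RNA covers 120.1 kb of the 686.1-kb RefSeq gene, so part of the signal beyond 10 kb lay inside that gene. Other chromosomes held 23 bins with 0.22% of the PPARGC1A RNA signal in MS replicate 1 and none in MS replicate 2. PPARGC1A RNA, with the most reads of the 5, also lay on the most bins, 1659 and 1967. Reads and bins did not run in parallel throughout, since PPARD RNA had more reads than VEGFA RNA in each library but lay on 95 and 109 bins in LW and 143 and 159 in MS, against 102 and 125 and 255 and 344 for VEGFA. The part of read number in the spread was not tested.

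**Figure D4:**
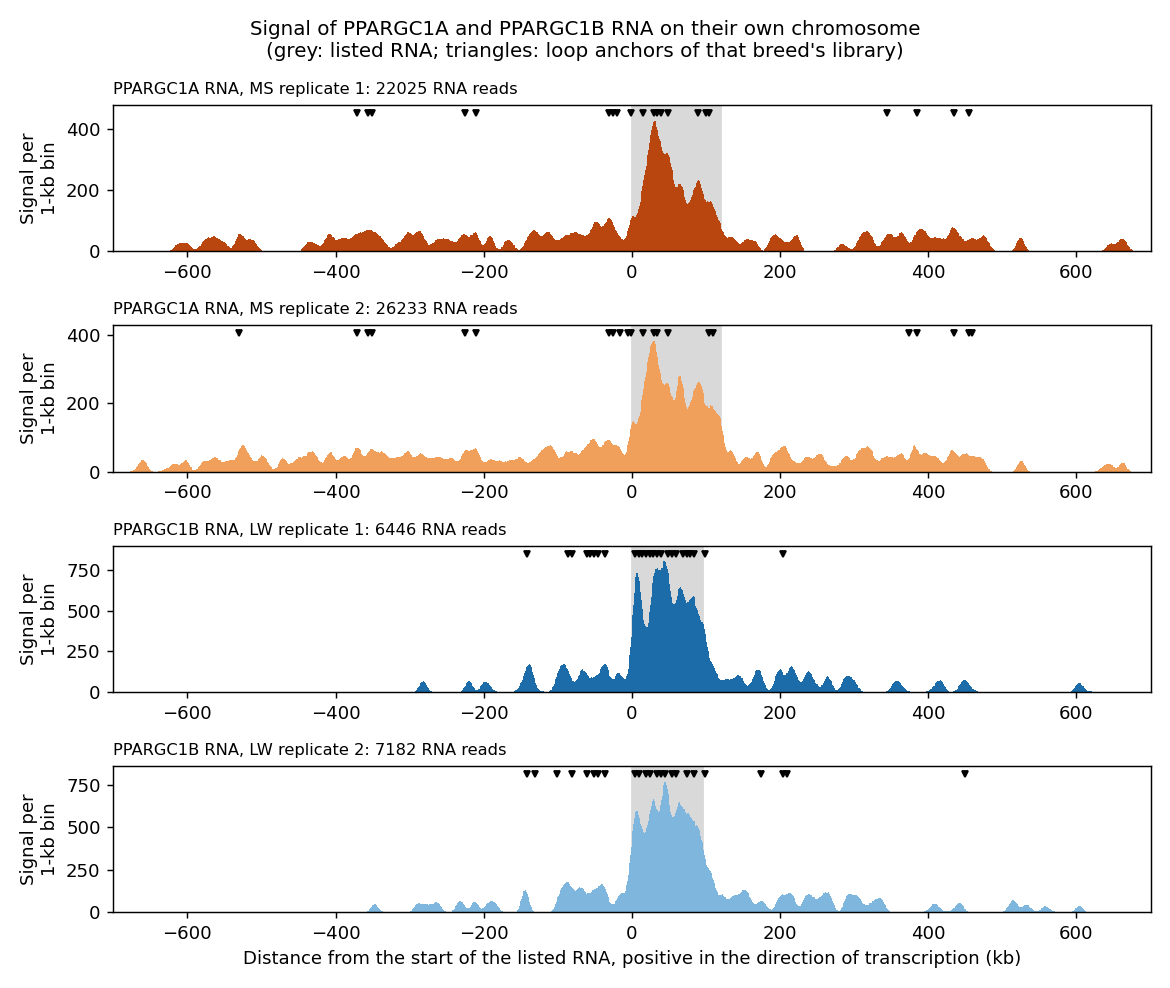
Signal per 1-kb bin of PPARGC1A RNA in the MS libraries and PPARGC1B RNA in the LW libraries, against the distance from the start of the listed RNA (kb, positive in the direction of transcription). Grey marks the listed RNA and triangles the loop anchors of the same breed and replicate number. Each RNA peaks inside its gene, PPARGC1A at 30.4 and 29.4 kb and PPARGC1B at 44.1 and 45.1 kb from the start, with lower signal on both sides.

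PPARGC1A RNA lay over the web of loops described above. Its signal peaked 30.4 and 29.4 kb from its start, and it lay on all 25 loop anchors beyond 10 kb of the RNA in both MS libraries. Within 500 kb of the listed RNA, 100 of 100 bins on such anchors carried it in both libraries, against 79.3% and 87.4% of the 879 other bins in the region. The median signal was 56.7 and 59.0 per anchor bin and 34.3 and 39.9 per other bin, at median distances of 259.3 and 253.6 kb. Neighbouring bins share signal, since runs of bins with signal were most often 23 bins long, so these bins are not independent and no test was made. PPARGC1B RNA lay on 80 and 77 of 80 far anchor bins and on 86.4% and 85.2% of the other bins in LW, but its anchors were nearer (median 79.5 kb against 151.6 kb).

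VEGFA RNA also reached the region that VEGFA loops to. It lay on 4 and 2 of 16 far anchors in LW and on 10 and 10 in MS. At the far anchor of the strongest loop, 231.5 kb beyond the RNA, its summed signal was 367.2 and 530.1 in MS and 0 in both LW libraries. Other far anchors varied. The one at chr7:38945001-38950000 held it in LW replicate 1 alone (466.3), and chr7:39065001-39070000 in LW replicate 1 (561.4) and MS replicate 2 (292.6). Those at chr7:39025001-39030000 and chr7:38655001-38660000 held it in MS replicate 1 alone (425.2 and 196.5). The share of anchor bins with VEGFA RNA was 16.5% and 11.3% in LW against 54.8% and 57.4% in MS, and that of the bins between them 13.9% and 22.4% in LW against 43.4% and 64.3% in MS. The anchor share was the higher in LW replicate 1 and MS replicate 1 and the lower in both replicate 2 libraries. The anchor bins lay farther out, at a median of 186.5 kb against 104.5 kb, so the shares are not compared at like distance. VEGFA RNA had more reads in MS, and the part of read number in this difference was not tested.

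**Figure D5:**
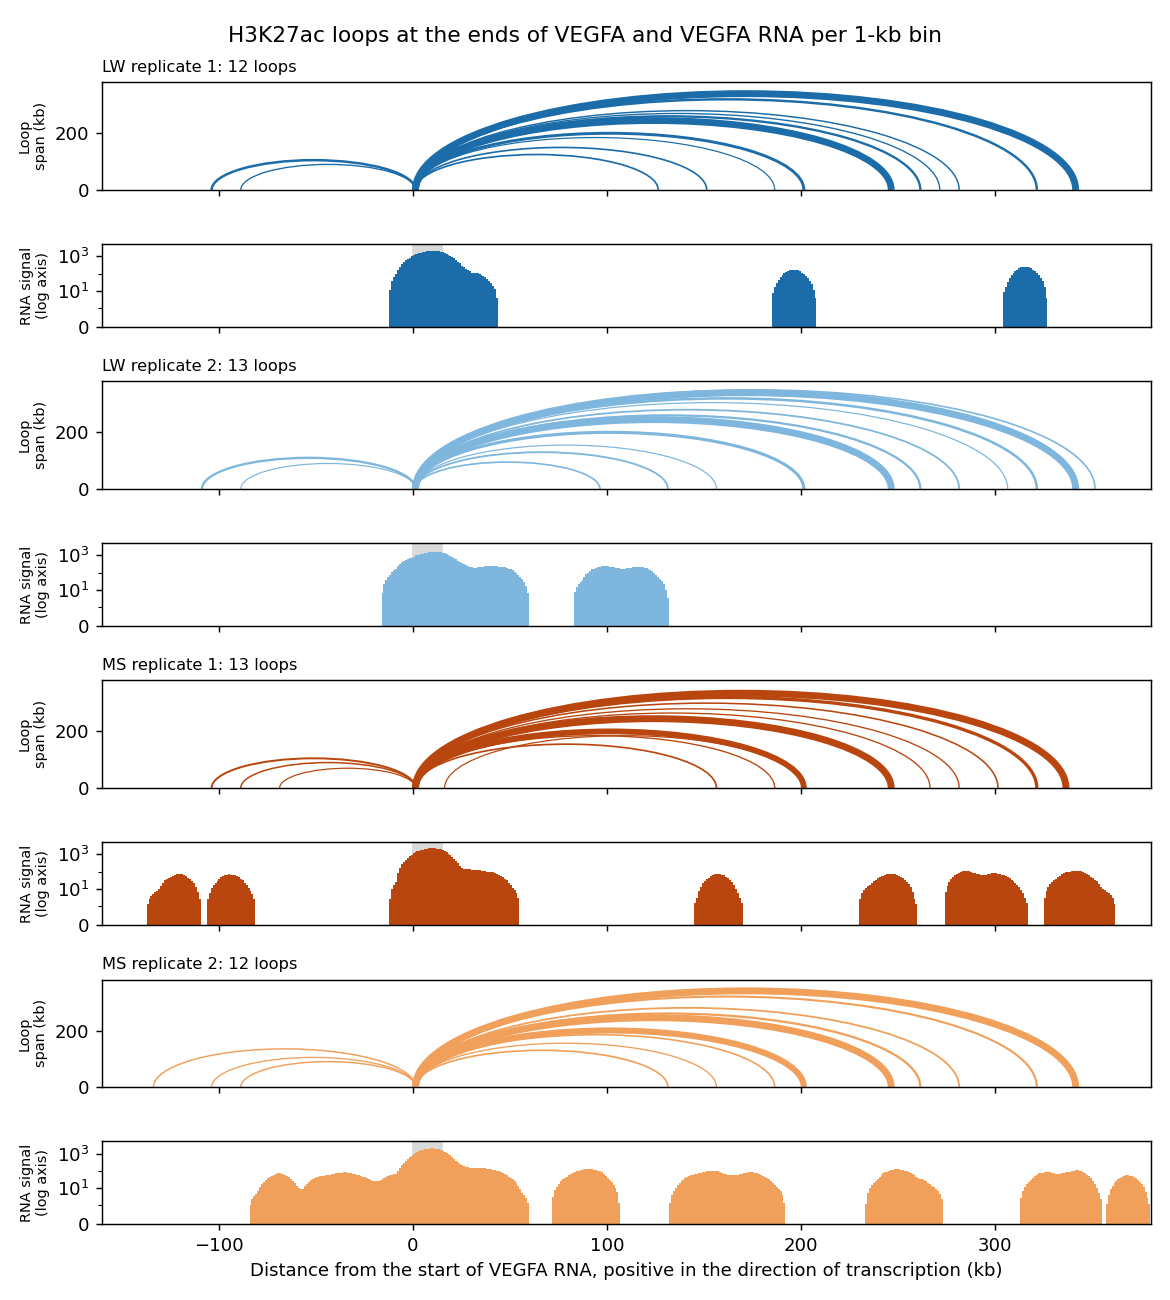
H3K27ac loops at the ends of VEGFA (arcs, height is the loop span in kb, thicker lines for a larger −log10 FDR up to 40) above the signal of VEGFA RNA per 1-kb bin (log axis, linear below 1) in each library, against the distance from the start of VEGFA RNA (kb). The fan of loops to the right is alike in the 4 libraries, while RNA beyond 10 kb of the listed RNA lies on 67 and 90 bins in LW and 220 and 309 in MS.

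The signal of all RNAs on bins within 5 kb of a gene end was then compared between breeds. No gene passed an adjusted p under 0.05 (limma, 0% of 23302 genes, against 3676 at an unadjusted p under 0.05). At the study's threshold for this signal, a log2 fold change above 2 in size and an unadjusted p under 0.05, 7.49% of genes were higher in LW and 8.28% in MS, and of the 9 members PPARGC1B and NRF1 were called higher in LW and PPARGC1A higher in MS. The median log2 fold change was 1.26 over the 9 members and −0.05 over all genes.

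PPARGC1A bins held a signal of 0 and 20.0 in LW against 1419 and 1937 in MS (log2 −8.80, SE 1.73, limma adjusted p = 0.19). PPARGC1B bins held 7947 and 7876 in LW against 35.9 and 48.0 in MS (log2 6.99, SE 0.91, limma adjusted p = 0.13). In the libraries that list them, the genes' own RNAs made up at least 99.0% of these sums, so the contrasts restate in which breed the RNA was listed. NRF1 bins held 812.4 and 1057 in LW against 0 and 29.3 in MS (log2 7.36, SE 1.95, limma adjusted p = 0.23), although NRF1 RNA itself was not listed.

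Nearly all the signal on NRF1 came from UBE2H RNA, of a ubiquitin-conjugating enzyme gene that ends 75.5 kb away. UBE2H RNA gave 787.6 and 1051 on NRF1 bins in LW, where it had 12866 and 14374 reads, and was not listed in MS. With RNAs of the same chromosome alone, PPARGC1A and NRF1 passed an adjusted p under 0.05 (limma, 0.0474 for both, the smallest of that fit) and PPARGC1B did not (0.0775), where 3.53% of 12072 genes passed. This signal was 0 in both LW libraries on PPARGC1A bins and in both MS libraries on NRF1 bins. PPARGC1A RNA was not listed in LW, nor UBE2H RNA in MS, so that these passes restate the listing. At the study's threshold NRF1 was lost with a pseudocount of 0.1 (log2 9.04) and without LW replicate 1 (7.13) or 2 (7.50), and PPARGC1A without MS replicate 1 (−8.71) or 2 (−8.94), so that the log2 fold changes stayed about as large while the calls were lost.

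PPARA bins held 1629 and 110.0 in LW against 3.33 and 15.6 in MS (log2 5.43, SE 2.12, limma adjusted p = 0.37). The RNA of ENSSSCG00000035352, whose gene lies 76.9 kb away, supplied 1620 and 78.1 in LW, 3.33 in MS replicate 1 and nothing in the other MS library, although it was listed in all 4 libraries with 4121 and 4726 reads in LW and 2243 and 2780 in MS. Without LW replicate 1 the log2 fold change was 2.78, and the study's threshold was passed without LW replicate 2 (7.93) and without normalization between libraries (5.65). RNAs of other chromosomes, TTN and ENSSSCG00000048856, gave at most 19.5 on PPARA bins.

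ESRRA bins held 888.1 and 640.9 in LW against 63206 and 1112 in MS (log2 −3.54, SE 2.47, limma adjusted p = 0.66), with 99.3% of the MS replicate 1 value from ESRRA RNA, and without that library the log2 fold change was −0.45. Without MS replicate 2 it was −6.76 and passed the study's threshold. The RNA of MACROD1, a mitochondrial ADP-ribosylhydrolase whose gene lies 126.2 kb away, was there in all 4 libraries, at 857.0 and 640.9 in LW against 441.9 and 1059 in MS, which overlap.

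PPARD bins held 1262 and 2204 in LW against 2079 and 2309 in MS, and VEGFA bins 28802 and 22811 in LW against 29199 and 28776 in MS, both overlapping between breeds (log2 −0.53, SE 0.89 and log2 −0.20, SE 0.86, limma adjusted p = 0.80 and 0.94). PPARD RNA itself gave 76.7% and 76.0% of the PPARD sum in LW against 89.9% and 71.2% in MS. FKBP5 RNA, of a co-chaperone of the glucocorticoid receptor encoded 145.6 kb away, gave 293.6 and 419.9 in LW against 174.2 and 651.5 in MS. VEGFA RNA made up 99.9% and 99.9% of the VEGFA sum in LW against 99.6% and 83.8% in MS, and most of the rest in MS replicate 2 was MRPS18A RNA (4623), which was listed there with 1312 reads and in no other library. The MRPS18A gene is also the upstream loop partner of VEGFA.

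ESRRG and TFAM bins were nearly bare of RNA, with at most 9.71 and 7.34 in any library (limma adjusted p = 0.66 for both). Titin RNA (TTN), a main component of the sarcomere and an RNA with many reads, was the RNA found on TFAM bins, in 3 libraries at 0.02 to 7.34. On ESRRG bins TTN was found in 2 libraries, at 3.56 and 8.14, and ENSSSCG00000044834 in both LW libraries at 6.14 and 5.16. On PPARGC1A bins ENSSSCG00000048037 was found in 3 libraries at 14.1 to 20.0. In total 41 pairs of a member and an RNA were found.

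A list of 41 further genes of this pathway was counted in the same way, 40 of them in the reference table. At the study's threshold, of 37 with a loop 1 was higher in MS and none in LW, and of 38 with RNA-chromatin signal 6 were higher in MS and 2 in LW, where 8.28% and 7.49% of all genes were. FABP3, CKMT2 and EPAS1 are among those 6 and ANGPTL4 is among those 2, and their own RNA was listed in that breed alone. The median log2 fold change was −0.22 for the loop score and −0.90 for the signal, against 0.02 and −0.05 over all genes. Of the 4 with reads in all libraries, 3 were called higher in MS, as were 42.5% of all RNAs tested.

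Among partners of the coactivators, KAT2A, which acetylates PPARGC1A, had a signal of 3.11 and 16.0 in LW against 58.5 and 172.3 in MS (log2 −3.83, limma adjusted p = 0.20). CREB1, an activator of PPARGC1A transcription, had 0 and 0 in LW against 38.6 and 15.6 in MS (log2 −5.09, limma adjusted p = 0.22). PERM1, a muscle partner of PPARGC1A and the estrogen-related receptors, went the other way, with 14.0 and 58.9 in LW and none in MS (log2 4.84, limma adjusted p = 0.18). These 3 genes had no listed RNA of their own and a signal of at most 172.3 in any library. The mitochondrial transcription factor TFB2M was the gene called by loop score, at 0 and 0 in LW against 3.39 and 10.3 in MS (log2 −2.99, limma adjusted p = 0.80).

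The target genes held larger contrasts where their own RNA was listed in 1 breed. The log2 values there cannot be told apart from that listing and give no fold of the RNA. FABP3, a fatty acid carrier of oxidative fibres, had a signal of 0 and 10.8 in LW against 75254 and 65354 in MS (log2 −14.54, limma adjusted p = 0.11), with 743 and 829 reads in MS and no listing in LW. CKMT2, the mitochondrial creatine kinase, had 0 and 182.2 in LW against 25058 and 28469 in MS (log2 −11.40, limma adjusted p = 0.20), with 3830 and 4387 reads in MS alone. ANGPTL4, an inhibitor of lipoprotein lipase, had 46771 and 31467 in LW against 94.4 and 34.9 in MS (log2 8.55, limma adjusted p = 0.16), with 1096 and 1061 reads in LW alone. PDK4, UCP3 and CPT1B, genes of fatty acid use, were listed in all 4 libraries and differed little in reads, with log2 fold changes of −0.11, −0.10 and −0.18 (edgeR adjusted p = 0.0027, 0.017 and 0.0014).

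Of the VEGF pathway, EPAS1, the hypoxia factor HIF-2α, had a signal of 0 and 19.3 in LW against 13041 and 12850 in MS (log2 −11.60, limma adjusted p = 0.15), with 6435 and 7547 RNA reads in MS alone. The EPAS1 contrast cannot be told apart from this listing either. KDR, the main VEGFA receptor, had 0 and 0 in LW against 15.1 and 12.3 in MS (log2 −3.73, limma adjusted p = 0.21). The co-receptor NRP1 had the highest mean loop score of the list, 72.3 and 95.4 in LW against 228.5 and 229.6 in MS, which did not overlap but missed the test (log2 −1.71, SE 0.78, limma adjusted p = 0.99). PDK4, UCP3, LPL and EPAS1 followed, with mean loop scores of 103.0, 98.0, 79.5 and 68.6.

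KDR and NRP1 are also expressed by blood vessels. Of the 4 endothelial markers, PECAM1 and CDH5 had loops in all 4 libraries, TEK in 2 and VWF in 1. Their summed loop score was 36.1 and 67.7 in LW against 67.1 and 141.9 in MS, which overlap. None of the 4 was listed as an RNA. The summed loop score of the fibroblast markers was 71.0 and 90.3 in LW against 40.9 and 49.6 in MS, which did not overlap, with COL1A1 and DCN in all 4 libraries. By reads COL1A1 RNA, the fibroblast marker with a listed RNA, was higher in MS, with 3065 and 3062 in LW against 3638 and 4116 in MS (log2 −0.51, edgeR adjusted p = 0.0013). By RNA-chromatin signal TEK was called higher in LW (log2 3.88, limma adjusted p = 0.21), as was CD3E of the leukocyte markers (log2 6.13, limma adjusted p = 0.16). Of 10 skeletal muscle markers 1 was called higher in LW by signal, as were 7.49% of all genes. By reads, of 5 muscle markers tested 2 were called higher in LW and 3 in MS, where 86.7% of all RNAs tested were called. Neither PECAM1, CDH5, VWF, TEK nor any fibroblast marker passed the loop threshold, and the part of cell makeup in the values above was not tested.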

How the data were processed

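Loop lists and RNA-chromatin lists of 8 libraries were used. For BL-HiChIP the authors mapped reads to Sscrofa11.1 and called loops per library with FitHiChIP on 5-kb bins, and the deposited value per loop was read as a p-value adjusted for FDR. For GRID-seq the authors selected chromatin-enriched RNAs and corrected for background, and the deposited whole number per RNA was read as a count of RNA reads, and the one per 1-kb bin of DNA as a signal. The lists carry no column names, so these readings rest on the values. Depth was 33353 to 57028 loops and 7172517 to 9943666 reads on listed RNAs.

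Genes were placed by the RefSeq table of Sscrofa11.1, in which all 9 members matched. Loop score (1-kb window around each gene end) and signal (5-kb window) were quantile-normalized and compared with limma 3.58.1 in R 4.3.3 on log2(value + 1), which understates changes of low genes. RNA reads were compared with edgeR 4.0.16 (TMM, quasi-likelihood), SE being the fold change over the root of F, with DESeq2 1.42.0 as an alternative. P-values were adjusted by Benjamini-Hochberg over all genes or RNAs tested. Scripts were tested on simulated data. Python 3.11.15, pandas 2.3.3 and matplotlib 3.10.9 were used.

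The members, the lists and the tests were chosen with earlier results of these data known. Named were all members, pathway genes past a threshold or among the 5 of highest mean loop score, genes at far anchors of member loops in 3 or 4 libraries, RNAs on member bins in 2 or more libraries and the 3 genes most like PPARGC1A. Alternatives covered normalization, the pseudocount, filters, windows, a stricter FDR of 0.001, RNAs of the same chromosome, a replicate block and leaving out each library. No sequence was used.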

Additional observations from a re-analysis of the deposited data

How the results depend on the processing

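Among alternatives, 119 anchor pairs were found with a 5-kb window against 63, and 49 to 60 when a library was left out. Called genes for the loop score were 822, but 1388 with a pseudocount of 0.1 and 836 to 1594 without a library (1461 without LW replicate 1, 1594 without MS replicate 2). For the whole-gene score they were 1042, and 839 to 1640 without a library (1640 without MS replicate 2). For RNA-chromatin signal, 0 genes at the adjusted threshold became 426 of 12072 with RNAs of the same chromosome alone. At the study's threshold 3676 of 23302 genes became 1915 of 12072, a similar share of the genes tested. Replicate numbers are shared by the breeds with 2 pairs, too few to show that they pair samples. Deviations of same-numbered libraries correlated at 0.35 for the loop score and −0.01 for the signal, and with a replicate block the loop score called 1289 genes. The cause of these shifts was not tested.

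Under the threshold throughout, log2 fold changes turned sign as follows. At gene ends, the 5-kb window gave −0.40 for ESRRA and 0.40 for PPARA, no normalization 0.37 for NRF1, and a loop in at least 2 libraries 0.15 for NRF1. No normalization gave −0.26 for the TFAM signal, and for the whole-gene score 0.30 for PPARGC1A, 0.41 for ESRRA and 0.0017 for PPARD. It moved the median of all genes from 0.005 to 0.44 for the whole-gene score and from 0.017 to 0.38 at gene ends. Without single libraries the gene-end score ranged from −0.23 to 0.26 for ESRRA, −1.90 to 0.45 for PPARA, −1.19 to 0.061 for PPARD and −0.93 to 0.92 for NRF1, the whole-gene score from −0.51 to 0.47 for PPARGC1A, −0.38 to 0.22 for ESRRA, −1.70 to 0.44 for PPARA and −0.24 to 0.97 for NRF1, and the signal from −0.030 to 3.31 for ESRRG and −0.38 to 0.0068 for VEGFA. The reads of VEGFA and PPARD passed in all 7 alternatives. ESRRG kept its whole-gene call in all 8, chosen after seeing the data, and passed at gene ends with the planned 5-kb window (log2 −4.69). PPARGC1B passed the loop threshold in 5 of 9 alternatives, the replicate block among them (log2 1.79), with log2 fold changes from 0.32 (5-kb window) to 3.76 (pseudocount 0.1). The start of the gene alone could be used only for the 5 genes whose strand GRID-seq gives.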
